A study of Rattus norvegicus with 12 samples.

Results

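The genes described here are 38 genes of the endoplasmic reticulum (ER), the compartment in which liver cells fold the plasma proteins and membrane proteins they make. They are a list of gene symbols grouped by function, drawn up with earlier results of these data known: 18 folding genes (chaperones, co-chaperones and enzymes of disulfide bonds), 9 genes of the translocon, 10 genes of ER-associated degradation, and Xbp1, a transcription factor of the unfolded protein response. Of these 38, 35 had at least 1 probe whose RefSeq accession belonged to the gene, out of 21874 genes tested in all. Of those 21874, 11400 have a gene symbol and the others stand under the name their probe has in the files, and shares of all genes below are over both kinds. No probe was matched to Manf, Derl2 or Sec62, which are not analysed here. The 35 genes carried 47 probes, of which 46 were kept. Where a gene had several, as 10 did, its brightest probe stood for it. Every one of the 35 was well above background on all 12 arrays.

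Livers came from adult male Wistar rats, an outbred strain. For 4 weeks, 6 rats were fed a low protein diet with 5% casein, and 6 were fed an isocaloric control diet with 14% casein. The study asked which metabolites answer to protein undernutrition, and the liver arrays served to follow the enzymes behind them. Total RNA of each liver was hybridised to 1 single-colour array, so n = 6 for every mean, SD and range below. Values are log2 processed signals, each taken relative to the 75th percentile of its own array, and differences are low protein minus control.

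Proteins bound for secretion enter the ER through the Sec61 channel as they are made, and the TRAP complex, whose subunits are the Ssr genes, helps some of them in. Inside, BiP (Hspa5) and other chaperones hold the chain, while Ero1 oxidases and protein disulfide isomerases join its cysteines. Chains that fail to fold are sorted by mannosidase-like Edem proteins and the lectin Os9, then pulled back through a membrane complex of Sel1l, the ubiquitin ligase Syvn1 and derlins for destruction by the proteasome. When unfolded chains build up, the unfolded protein response raises many of these genes through ATF6, the spliced form of Xbp1 and, on the branch that begins with PERK, Atf4.

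Of the ER genes, 1 differed between the diets by the test. Ero1b, an oxidase that hands oxidising power to protein disulfide isomerases, was at 1.46-fold the control level in low protein livers. None of the 35 was lower by the test (limma, Benjamini-Hochberg adjusted p under 0.05 over all 21874 genes). By the same test 3.48% of all genes were higher and 3.05% were lower, so 1 of 35 is close to the background share and says nothing particular about the ER genes. At an unadjusted p under 0.05, 5 of the 35 were higher and 1 was lower, against 21.6% of all genes in either direction; past the adjusted threshold, 6.53% of all genes differed in either direction. In no case were all low protein rats on 1 side of all control rats, which held for 4.98% of all genes. These are bulk livers, in which fewer cells of a type and less RNA per cell cannot be told apart.

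Most of these genes were measured tightly enough to bound the change. The 95% interval of the difference lay within 1.5-fold in either direction for 26 of the 35 genes (74.3%), against 69.9% of all genes. Their differences ran between -0.38 for Calr and 1.26 for Derl3, with a median of 0.09, while the median over all genes was -0.03. More of them lay above 0 (25 of 35, or 71.4%) than of all genes (44.9%). With no scaling between arrays the median of all genes itself moves by 0.13, and relative to that median 27 of the 35 lie above in both settings. With quantile normalization 22 lie above it, within slide 1 21, and with no filter on dim probes 20. In that last setting 25 of the 35 lie above 0, against 58.5% of all genes. The 35 genes share their rats and arrays, so these counts carry no p.

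**Figure D1:**
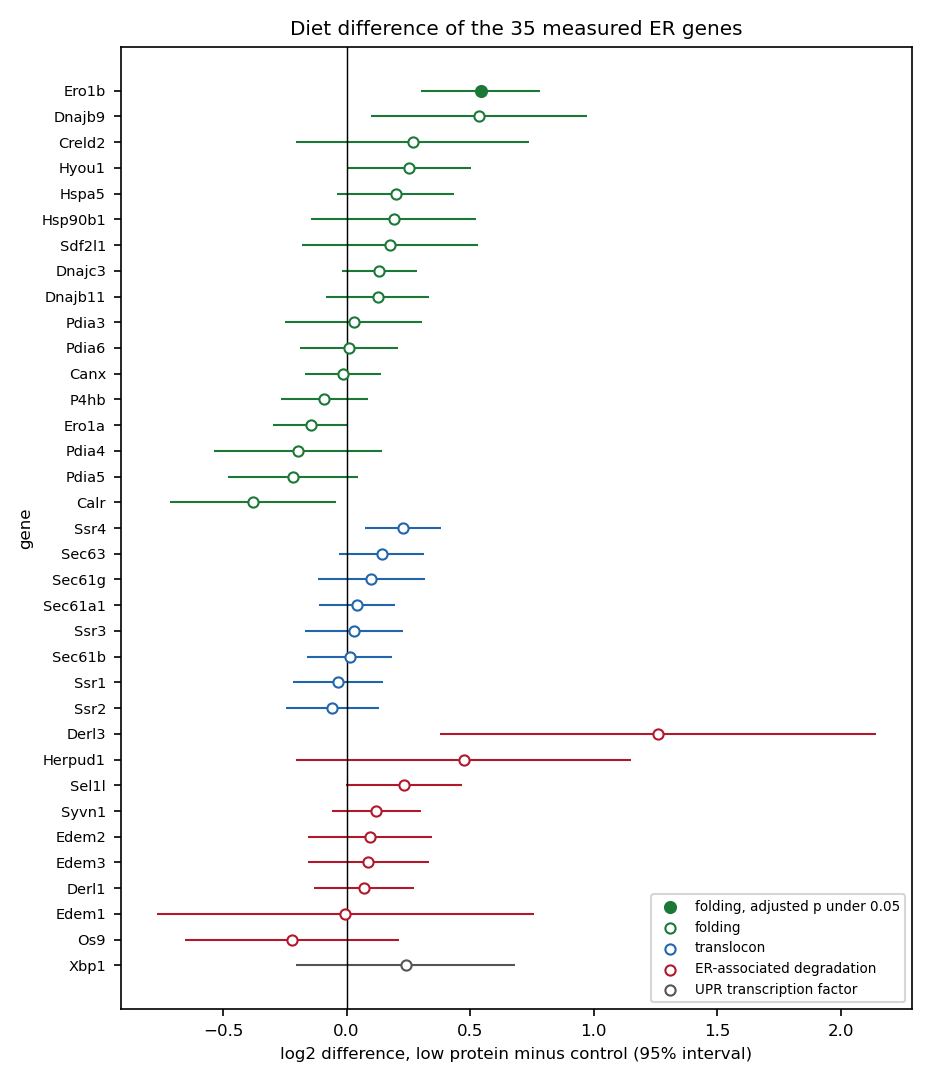
Log2 difference, low protein minus control, of each of the 35 ER genes with its 95% interval (n = 6 rats per diet), grouped as folding, translocon, degradation and Xbp1. Ero1b is the gene past the adjusted threshold, Derl3 has the largest difference at 1.26 with the widest interval, 0.38 to 2.14, and all 8 translocon intervals lie within 1.5-fold.

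Sequences near the start sites are shown here because some of the members hold a motif of the unfolded protein response. The list was drawn up by function and includes genes of that response. The share of members with the motif is therefore not independent of the choice. The ER stress response element (ERSE) was first described in promoters of ER chaperones, where the unfolded protein response acts. RefSeq promoters of build GRCr8, 250 bases before to 50 after each start, were on hand for 31 of the 38 genes. ERSE was searched on both strands as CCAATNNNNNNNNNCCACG and its shorter relative ERSE-II as ATTGGNCCACG. No gene among these 31 held both patterns. ERSE was in 9 of the 31 genes (29%), against 21 of all 27457 genes in the table (0.0765%). ERSE-II was in 3 of the 31 (9.68%), against 17 of all genes (0.0619%), and either motif was in 12 of 31 (38.7%), against 0.138% of all genes. The matches follow, read along the strand that carries them, with the fixed letters of the motif in capitals:

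Hspa5: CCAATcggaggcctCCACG
Hsp90b1, upstream match: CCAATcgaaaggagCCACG
Hsp90b1, nearer match: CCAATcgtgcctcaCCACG
Calr: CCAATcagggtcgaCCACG
Canx: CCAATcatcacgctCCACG
Dnajc3: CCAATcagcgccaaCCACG
Creld2: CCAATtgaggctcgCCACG
Ero1b: CCAATgaggcgggaCCACG
Derl3: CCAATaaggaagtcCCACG
Xbp1: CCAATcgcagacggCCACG
Dnajb11, ERSE-II: ATTGGcCCACG
Herpud1, ERSE-II: ATTGGgCCACG
Hyou1, nearer ERSE-II match: ATTGGgCCACG

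A second ERSE-II match lay further upstream in Hyou1, at 188 bases before the start against 88 for the one printed. The match in Hspa5 began 43 bases before the start, that in Xbp1 65, that in Derl3 154 and that in Ero1b 224. The 12 genes with either motif had a median difference of 0.22, with 10 of 12 above 0 and a range of -0.38 (Calr) to 1.26 (Derl3). The 17 measured genes whose promoter held neither had a median of 0.09, with 11 above 0 and a range of -0.22 to 0.54. Ero1b, which passed the test, and Calr, the lowest of the 35, both carry an ERSE match, and the difference between genes with and without a motif was not tested. A match is a description of letters, not a site in use.

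Among other elements of the response, TGACGTGG (UPRE) was in 1 of the 31 genes, Hyou1, against 0.681% of all genes, where it overlaps the upstream ERSE-II match. The pattern TGATGNAA, which ATF4 with its partners is known to bind, was in 1 of 31, Herpud1, against 4.16% of all genes. Both were searched on both strands. The 300-base promoters of Hspa5, Ero1b and Derl3 are printed 5′ to 3′ along the gene, with the ERSE match in capitals, because Hspa5 is the standard gene of the response and Ero1b and Derl3 had the clearest and the largest differences. In Ero1b and Derl3 the match is on the other strand, so the capitals are its reverse complement.

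Hspa5, chr3:38452766-38453065, plus strand, GRCr8: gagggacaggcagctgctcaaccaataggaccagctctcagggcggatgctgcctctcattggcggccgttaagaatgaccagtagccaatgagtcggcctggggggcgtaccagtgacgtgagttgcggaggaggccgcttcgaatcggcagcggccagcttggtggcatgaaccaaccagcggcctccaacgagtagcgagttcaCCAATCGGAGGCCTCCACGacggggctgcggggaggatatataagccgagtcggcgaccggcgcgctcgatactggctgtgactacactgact
Ero1b, chr17:92941432-92941731, plus strand, GRCr8: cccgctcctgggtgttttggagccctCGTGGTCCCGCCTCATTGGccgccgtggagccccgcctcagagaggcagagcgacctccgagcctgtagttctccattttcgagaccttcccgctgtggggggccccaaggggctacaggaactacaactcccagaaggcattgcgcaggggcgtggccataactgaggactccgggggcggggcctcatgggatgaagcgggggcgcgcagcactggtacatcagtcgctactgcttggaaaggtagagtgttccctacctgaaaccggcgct
Derl3, chr20:12766416-12766715, minus strand, GRCr8: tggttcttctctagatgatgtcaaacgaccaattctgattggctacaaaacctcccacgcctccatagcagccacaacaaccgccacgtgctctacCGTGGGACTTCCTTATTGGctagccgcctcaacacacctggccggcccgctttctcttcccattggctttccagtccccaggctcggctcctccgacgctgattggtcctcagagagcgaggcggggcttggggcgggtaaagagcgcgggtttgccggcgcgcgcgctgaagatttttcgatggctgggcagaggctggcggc

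Ero1b gave the 1 difference past the threshold. It was the dimmest of the measured ER genes, with means of -3.41 in low protein and -3.95 in control livers. In low protein livers its 6 values were -3.49, -3.33, -3.77, -3.34, -3.16 and -3.35, and in control livers they were -3.79, -3.76, -3.95, -3.86, -4.21 and -4.11. All low protein rats but rat 3 were above the highest control rat, and rat 3 lay just below it. The difference was 0.54 ± 0.11 (SE, n = 6 per diet; adjusted p = 0.0137), a fold of 1.46 with a 95% interval of 1.23 to 1.72. The size depends on the background correction: it was 0.30 with normexp on the median signal and 0.42 with the deposited values (adjusted p = 0.0181 and 0.00988). In the planned setting it was 0.54 among the 8 arrays of slide 1 and 0.56 among the 4 of slide 2. The call held with each rat left out in turn, with adjusted p between 0.00531 and 0.0330. Ero1a, the paralogue that oxidises the same isomerases in most tissues, had a difference of -0.15 ± 0.07 (adjusted p = 0.250), with no low protein rat above the control median. Whether the 2 oxidases differ from each other in their response was not tested.

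No chaperone passed the test, and 8 of the 10 measured chaperones and co-chaperones had differences above 0. Hspa5 encodes BiP, the main Hsp70 of the ER. Its values were 4.38 to 4.92 (median 4.78) in low protein livers and 4.31 to 4.76 (median 4.53) in control livers, a difference of 0.20 ± 0.11 (95% interval -0.04 to 0.44; adjusted p = 0.326). The diets overlapped, although 4 of 6 low protein rats were above every control rat, and the upper bound is a rise of 1.35-fold. Hyou1, the Grp170 partner that exchanges nucleotide on BiP, was 1.61 to 2.23 (median 2.0) in low protein livers and 1.46 to 2.01 (median 1.72) in control livers. Its difference of 0.25 ± 0.12 (adjusted p = 0.227) left 3 low protein rats above the highest control. Hsp90b1, the Hsp90 of the ER, differed by 0.19 ± 0.15 (adjusted p = 0.533), and only low protein rat 2 was above the highest control.

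Dnajb9 (ERdj4), a J protein that brings BiP to misfolded chains and to the stress sensor IRE1, had the largest difference of the chaperone group. Low protein livers held -0.02 to 0.82 (median 0.49) and control livers -0.79 to 0.31 (median 0.10). Control rats 1 and 4 were far below the other controls, at -0.79 and -0.52, and 4 low protein rats were above the highest control. The difference was 0.54 ± 0.20 (95% interval 0.10 to 0.98; adjusted p = 0.140), 0.40 on slide 1 and 0.81 on slide 2. Leaving out single rats gave 0.40 to 0.63, and none of these fits brought it past the threshold.

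The other J proteins did not pass the test either. Dnajc3 (P58IPK), a BiP co-chaperone that also restrains PERK, differed by 0.13 ± 0.07 (95% interval -0.02 to 0.29; adjusted p = 0.301), with 4 low protein rats above the highest control. Dnajb11 (ERdj3), which hands nascent chains to BiP, also had 4 rats above the highest control at a difference of 0.13 ± 0.10 (adjusted p = 0.502). Sdf2l1, a partner of the J proteins, differed by 0.18 ± 0.16 (adjusted p = 0.598), and Creld2, a stress-induced ER protein, by 0.27 ± 0.22 (adjusted p = 0.536). For Creld2 the difference was 0.02 on slide 1 and 0.76 on slide 2, where low protein rat 5 was the highest of the 12 at 1.01.

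Calr ran the other way. It encodes calreticulin, the soluble lectin chaperone that binds glycoproteins and stores calcium. Low protein livers held 2.34 to 3.06 (median 2.65) and control livers 2.62 to 3.35 (median 3.13). No low protein rat reached the control median, and 2 lay below the lowest control rat, but the ranges overlapped. The difference was -0.38 ± 0.16 (95% interval -0.72 to -0.04; adjusted p = 0.176), -0.37 on slide 1 and -0.40 on slide 2. Canx, calnexin, the membrane-bound lectin of the same cycle, was at 3.07 to 3.31 in low protein livers and 3.05 to 3.27 in control livers. Its difference was -0.01 ± 0.07 (95% interval -0.17 to 0.14; adjusted p = 0.934), and its sign changed in 6 of 25 alternatives.

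**Figure D2:**
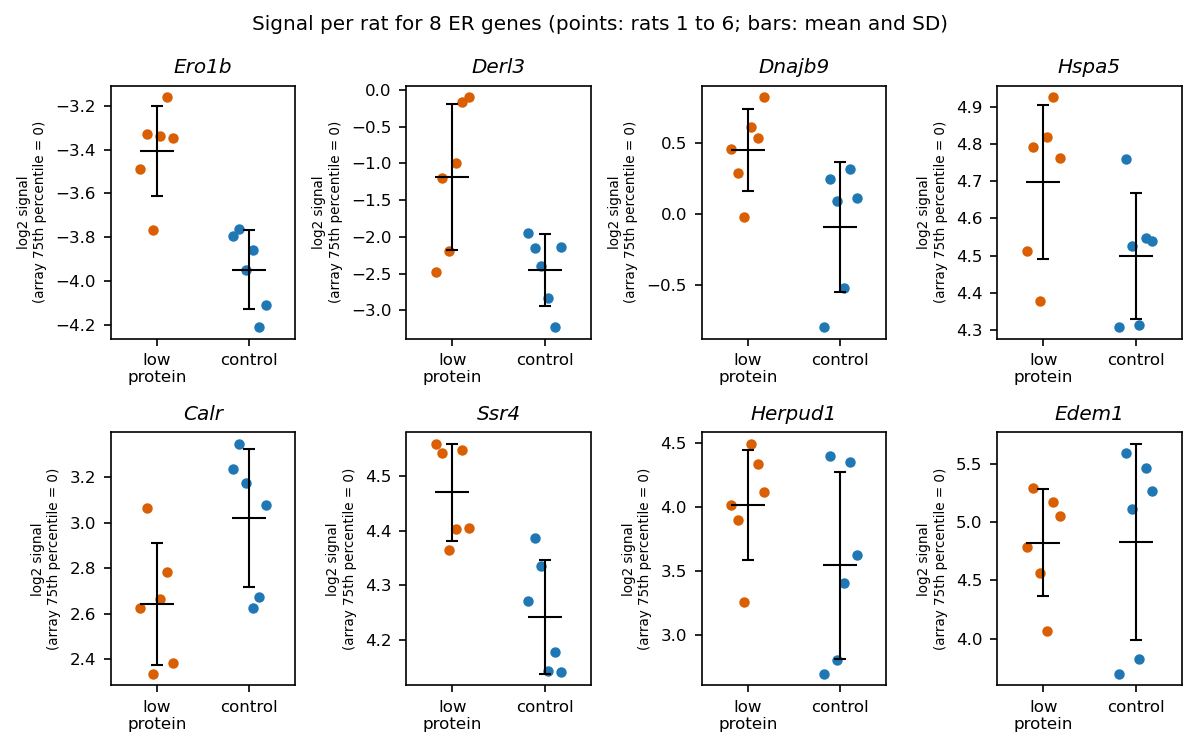
Values of single rats (log2 signal less the 75th percentile of the array) for 8 ER genes, low protein rats left of control rats in each panel, points in order of rat number and bars at the mean and SD of each diet (n = 6). Ero1b separates the diets except for low protein rat 3, Derl3 spreads from -2.47 to -0.10 among low protein rats, and Calr has no low protein rat above the control median.

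No disulfide isomerase passed the test. The 7 thiol oxidoreductases, Ero1a and Ero1b included, had a median difference of -0.09 with 3 of 7 above 0, while the 10 chaperones and co-chaperones had a median of 0.18; the 2 medians were not tested against each other. P4hb, the most studied isomerase, differed by -0.09 ± 0.08 (adjusted p = 0.580), Pdia3 (ERp57), which works with calnexin and calreticulin, by 0.03 ± 0.13 (adjusted p = 0.929), and Pdia6 by 0.01 ± 0.09 (adjusted p = 0.971). None of these 3 intervals reached 1.5-fold. Pdia4 differed by -0.20 ± 0.16 (adjusted p = 0.527), which was -0.05 on slide 1 and -0.50 on slide 2.

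Pdia5, a less studied isomerase, needs its single values. Low protein livers held 1.22 to 2.08 (median 1.84) and control livers 1.87 to 2.14 (median 1.99). Of the low protein rats, 5 were below the lowest control and only rat 4 was above the control median. Rat 6 stood apart from its diet at 1.22, the next being 1.81. The difference was -0.22 ± 0.12 (adjusted p = 0.335), and the dimmer second probe gave -0.05 ± 0.10 (adjusted p = 0.842 over 25704 probes, of which 6.69% passed).

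The translocon was the most tightly bounded group. For all 8 measured genes the 95% interval lay within 1.5-fold, the differences ran from -0.06 to 0.23 with a median of 0.04, and the median SD between rats was 0.12, against 0.22 over all genes. Sec61a1, the pore itself, was at 4.05 to 4.38 (median 4.24) in low protein livers and 4.09 to 4.26 (median 4.20) in control livers. Its difference was 0.04 ± 0.07 (95% interval -0.11 to 0.20; adjusted p = 0.790), and the control range lay inside the low protein range. The small pore subunits Sec61b and Sec61g differed by 0.01 ± 0.08 (adjusted p = 0.952) and 0.10 ± 0.10 (adjusted p = 0.624). Sec63, the J protein that recruits BiP to the pore, differed by 0.14 ± 0.08 (adjusted p = 0.330).

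Of the TRAP subunits, Ssr4 had the largest difference. Ssr4 encodes TRAP delta. Its 6 values were 4.56, 4.54, 4.36, 4.40, 4.55 and 4.40 in low protein livers and 4.27, 4.39, 4.33, 4.14, 4.18 and 4.14 in control livers. Every low protein rat but rat 3 was above the highest control, rat 2 of that diet. The difference was 0.23 ± 0.07 (95% interval 0.07 to 0.38; adjusted p = 0.0764), 0.24 on slide 1 and 0.21 on slide 2. A second Ssr4 probe gave 0.23 ± 0.07 (adjusted p = 0.0900 over probes). Ssr4 did not pass the planned test, and it did pass with a trended and robust estimate of the spread (adjusted p = 0.0335), a setting in which 4.34% of all genes are higher. Ssr1, Ssr2 and Ssr3 differed by -0.04 ± 0.08, -0.06 ± 0.09 and 0.03 ± 0.09 (adjusted p between 0.763 and 0.895), all with sign depending on the setting. The difference between Ssr4 and these subunits was not tested.

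ER-associated degradation held the largest difference and the 3 noisiest genes. The 9 measured genes had a median difference of 0.09 and a range of -0.22 to 1.26, and none passed the test. Derl3, a derlin that the unfolded protein response induces, was at -2.47, -1.19, -2.19, -1.0, -0.16 and -0.10 in low protein livers and at -1.94, -2.15, -2.39, -2.83, -3.23 and -2.14 in control livers. Low protein rats 2, 4, 5 and 6 were above every control rat, while rats 1 and 3 were inside the control range. The difference was 1.26 ± 0.41 (95% interval 0.38 to 2.14; adjusted p = 0.0875), a fold of 2.40 with bounds of 1.30 and 4.42.

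Derl3 varied widely between rats. Its pooled SD of 0.78 was above that of 97.5% of all genes. Without low protein rat 1 the difference was 1.52 and passed (adjusted p = 0.0370), in a fit where 2.48% of all genes were higher, and over all rats left out in turn it ran between 1.04 and 1.52. It was 0.71 on slide 1 and 2.36 on slide 2, which holds low protein rats 5 and 6 and control rats 2 and 4. A second, much dimmer Derl3 probe gave 1.2 ± 0.39 (adjusted p = 0.0906 over probes). Derl3 is also known from secretory cells such as plasma cells. Of 7 B and plasma cell markers, 4 had a probe, and 3 of these were near background: Mzb1 exceeded it clearly on 2 of 12 arrays, Cd79b on 5 and Tnfrsf17 on 0. Derl1, the more widely expressed derlin, differed by 0.07 ± 0.09 (adjusted p = 0.733), with overlapping diets.

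Herpud1, a short-lived membrane protein that gathers the degradation complex, varied widely within each diet. Low protein livers held 3.26 to 4.49 (median 4.06) and control livers 2.70 to 4.40 (median 3.51). Control rats 2 and 5 were near the top of all 12 and control rats 1 and 3 at the bottom. The difference of 0.47 ± 0.31 (95% interval -0.21 to 1.15; adjusted p = 0.427) came with a wide interval, and the SD of 0.60 was above that of 94.0% of all genes. Edem1, which sends misfolded glycoproteins to degradation, was at 4.07 to 5.29 (median 4.92) in low protein livers and 3.70 to 5.59 (median 5.19) in control livers. Control rats 1 and 4 lay far below the other 4 controls, at 3.70 and 3.83. Its difference was -0.01 ± 0.35 (95% interval -0.77 to 0.76; adjusted p = 0.995), and its other probes gave -0.04 ± 0.13 and -0.09 ± 0.28.

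Beside the derlins, the complex that pulls chains out of the ER holds Sel1l and Syvn1, neither of which passed the test. Sel1l, the adaptor of the complex, was 1.67 to 2.33 (median 1.94) in low protein livers and 1.55 to 1.92 (median 1.75) in control livers, with 3 low protein rats above the highest control. The difference was 0.23 ± 0.11 (95% interval -0.0026 to 0.47; adjusted p = 0.238), and a second probe gave 0.36 ± 0.12 (adjusted p = 0.110 over probes). Syvn1 (Hrd1), the ubiquitin ligase beside it, differed by 0.12 ± 0.08 (adjusted p = 0.449). A second, much dimmer Syvn1 probe gave 0.55 ± 0.31 (adjusted p = 0.323 over probes). Of the genes that pick substrates, Edem2 and Edem3 both differed by 0.09 (SE 0.12 and 0.11), with a second Edem3 probe at -0.16 ± 0.19, and Os9 by -0.22 ± 0.20 (adjusted p = 0.578). Both Os9 probes gave -0.22.

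Xbp1 is spliced by IRE1 into the active factor of the response, and this probe reports its total RNA, not the splice form. Low protein livers held 2.56 to 3.31 (median 3.02) and control livers 2.25 to 3.38 (median 2.74), so the low protein range lay inside the control range. The difference was 0.24 ± 0.21 (adjusted p = 0.560), -0.01 on slide 1 and 0.74 on slide 2.

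The 3 functional groups are set side by side here, with no test made between them. The folding group joins chaperones and co-chaperones, at a median of 0.18, with thiol oxidoreductases, at a median of -0.09. The median differences were 0.13 for the 17 folding genes, 0.04 for the 8 translocon genes and 0.09 for the 9 degradation genes. All 3 lay above the median of all genes with no scaling and with quantile normalization, where the translocon median itself was below 0, at -0.03. The translocon median was under that of all genes with no filter on dim probes, at a distance of -0.024, and within slide 1, at -0.0057. Taken per rat as the median deviation from the control mean, folding genes ran from -0.14 to 0.26 (median 0.09) in low protein rats and from -0.18 to 0.18 (median -0.0096) in control rats. Translocon genes ran from -0.21 to 0.20 (median 0.07) in low protein rats and from -0.11 to 0.14 (median -0.02) in control rats. Degradation genes ran from -0.02 to 0.29 (median 0.13) in low protein rats and from -0.26 to 0.18 (median 0.0084) in control rats. The ranges of the diets overlapped in all 3 groups.

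**Figure D3:**
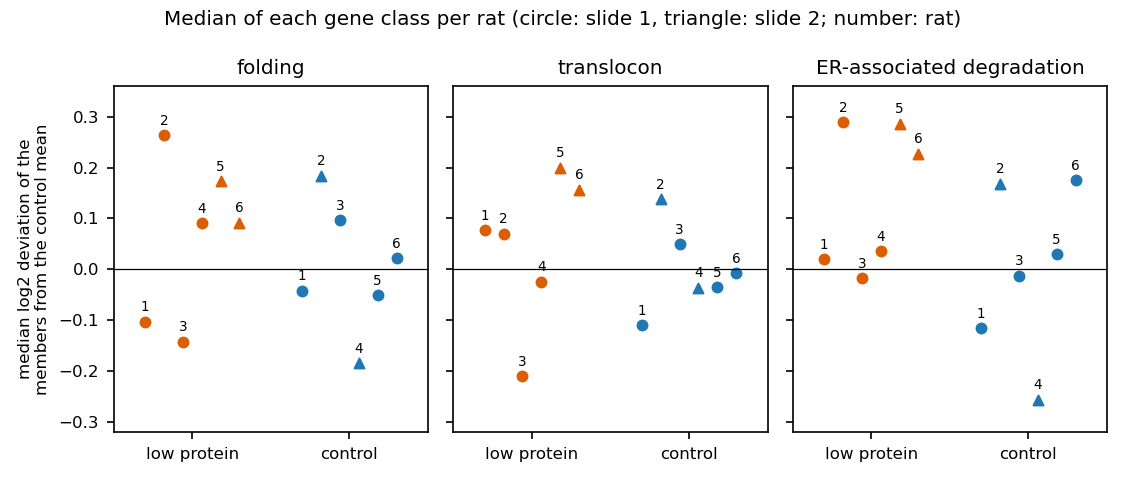
Median deviation from the control mean (log2) over folding, translocon and degradation genes, 1 numbered point per rat, low protein left of control in each group, circles for slide 1 and triangles for slide 2. The diets overlap in all 3 groups, and low protein rat 3 is the lowest of its diet in each.

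The same rats were high or low across many of these genes. Low protein rat 3 was the lowest of its diet in 22 of 35 genes (62.9%), against 15.2% of all genes, and the highest in none of the 35. Its group medians were -0.14 for folding, -0.21 for translocon and -0.02 for degradation genes. Low protein rat 5 was the highest of its diet in 13 of 35 (37.1%, against 14.4% of all genes), with medians of 0.17, 0.20 and 0.29 in the same order. Among controls, rat 2 was the highest in 17 of 35 (48.6%, against 21.6% of all genes), and rat 1 was the lowest in 13 (37.1%, against 15.1%). Control rat 4 had the lowest control median of the folding genes, at -0.18, and of the degradation genes, at -0.26.

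**Figure D4:**
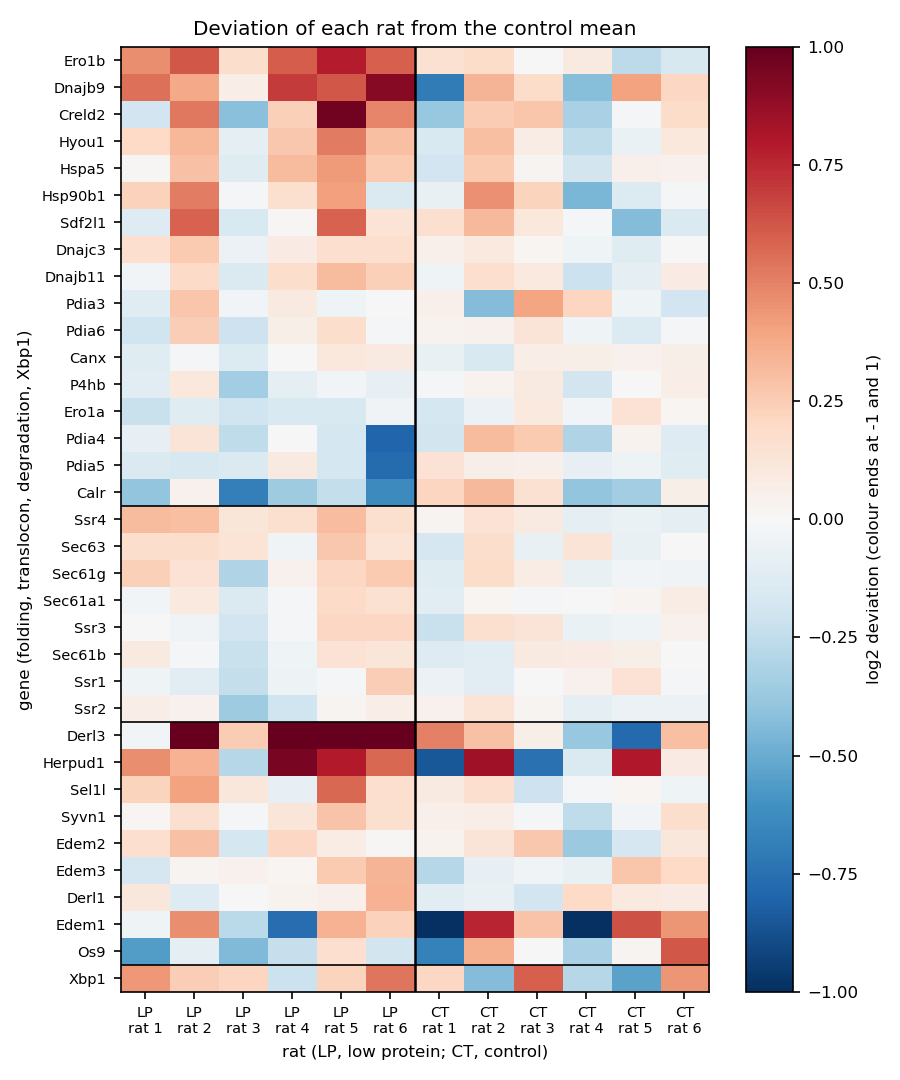
Deviation of each ER gene in each rat from that gene's control mean (log2), genes in rows by function and rats in columns, low protein left of control, red above and blue below that mean, with colours ending at -1 and 1. Low protein rat 3 is the lowest of its diet in 22 of 35 genes and control rat 2 the highest of its diet in 17, while Derl3, Herpud1 and Edem1 vary the most between rats.

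The slides moved with several of these results. Slide 1 held 4 rats of each diet and slide 2 held 2 of each, and each slide is also its own scan. The median difference of the 35 genes was 0.02 on slide 1 and 0.16 on slide 2, that of the degradation genes 0.04 on slide 1 and 0.32 on slide 2, and the median of all genes -0.02 on slide 1 and -0.03 on slide 2. With slide as a block Ero1b remained the 1 gene past the threshold (adjusted p = 0.00907). Within slide 1 alone and within slide 2 alone no member passed, Ero1b included (adjusted p = 0.122 and 0.376), although its size was alike on both.

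Genes that work beside these were counted from 6 further lists. The regulators of the unfolded protein response had 3 higher and 0 lower of 14 measured genes, with a median of 0.20, against 3.48% higher and 3.05% lower among all genes. The same background applies to the lists that follow, and no list was tested as a group. Among these regulators the sensors Atf6 and Eif2ak3 (PERK) did not pass, at 0.29 ± 0.11 and 0.30 ± 0.13 (adjusted p = 0.137 and 0.214). Ern1, which encodes IRE1, was not measured. Ddit3 and Ppp1r15a did not pass either, at -0.13 ± 0.13 and -0.01 ± 0.23 (adjusted p = 0.621 and 0.984). Atf4, the transcription factor of the integrated stress response, which amino acid shortage also engages, was at 3.73 to 4.29 in low protein livers and 2.93 to 3.47 in control livers, a difference of 0.82 ± 0.12 (adjusted p = 0.00186). Trib3, a pseudokinase known as an Atf4 target, was at -1.17 to -0.30 in low protein livers and -2.71 to -1.79 in control livers, a difference of 1.60 ± 0.18 (adjusted p = 0.000429). Bhlha15 (Mist1), a factor of secretory cells known from the exocrine pancreas, was at -0.98 to 0.89 in low protein livers and -4.46 to -2.41 in control livers, a difference of 3.49 ± 0.38 (adjusted p = 0.000317). For these 3 genes the diets did not overlap, unlike any of the 35 ER genes, against 4.98% of all genes. In the same list the diets also did not overlap for Mbtps2, which was lower at -0.55 ± 0.15 and did not pass (adjusted p = 0.0517). Mbtps2 was near background, well above it on 0 low protein and 5 control arrays.

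The steps before and after the chaperones were counted in the same way. The list of signal recognition and signal peptidase genes, which also holds some other ER genes, had 1 higher and 0 lower of 16. The higher gene was Sil1, a nucleotide exchange factor of BiP, at 0.28 ± 0.08 (adjusted p = 0.0460). No signal recognition or signal peptidase gene itself passed, and the Sil1 call was lost in 17 of 25 alternatives. Of the oligosaccharyltransferase, which attaches glycans to entering chains, 2 of 11 genes were higher and 0 lower. Stt3b, one of its catalytic subunits, differed by 0.38 ± 0.08 (adjusted p = 0.0183) with no overlap between diets, and Tusc3, an oxidoreductase subunit, by 0.53 ± 0.14 (adjusted p = 0.0412), lost in 14 of 25 alternatives. In glycoprotein quality control 1 of 14 genes was higher, Mogs, the glucosidase that makes the first cut on the new glycan, at 0.35 ± 0.06 (adjusted p = 0.00694). The calls of Stt3b and Mogs were each lost in 3 of 25 alternatives.

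No gene of the remaining lists passed the planned test. Of 19 other degradation factors, with a median of -0.0037, Selenok had the smallest p, at -0.29 ± 0.09 (adjusted p = 0.0870), and it passed as lower in 4 of 25 alternatives, followed by Ubxn4 at 0.19 ± 0.08 (adjusted p = 0.192). The COPII coat carries folded cargo out of the ER. Its list, which also holds some other export genes, had a median of 0.10 over 13 measured genes. Sec24b came first at 0.29 ± 0.09 (adjusted p = 0.0815). It passed in 1 of 25 alternatives, without low protein rat 6 (adjusted p = 0.0355). Sec31a came next at 0.20 ± 0.08 (adjusted p = 0.141).

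Facts of the arrays bear on all of this. The arrays carried 58717 spots each besides controls. Between 61.2% and 69.9% of these exceeded background clearly, and none was saturated. All 8 hepatocyte markers were measured, with 0 higher and 2 lower, against 3.48% higher and 3.05% lower among all genes. Of these markers 7 had differences below 0. Their summed linear level was 557 to 719 in low protein livers and 653 to 756 in control livers. Of 8 Kupffer cell markers none passed the test and all 8 had differences below 0, with a sum of 25.5 to 34.2 in low protein livers and 25.2 to 49.7 in control livers. None of the stellate (7 measured), endothelial (6), cholangiocyte (6), erythroid (4) or B and plasma cell markers (1) passed. Their part in the results above was not tested.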

How the data were processed

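Liver RNA of 12 rats carried the dye Cy3 on Agilent arrays of a single colour, as the labels state. The scans had been read by the authors with Agilent Feature Extraction 12.0.3.1, per the file headers. That software subtracts background, and the deposited processed signals are intensity values on a linear scale, not scaled between arrays. The deposited series values equal the median signal at 100% of spots, with column medians of 51.5 to 65.5, and 0 columns were left without a sample. The headers name genome build rn4, so the only coordinates given are those of RefSeq promoters in GRCr8.

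Genes were named through the RefSeq accession of each probe (21215 of 45598 probes, 46.5%, matched). From log2 of the processed signal each array's 75th percentile was subtracted, outlier-marked spots were set missing, and a probe was kept if at least 5 of the 6 arrays in 1 diet had it well above background. The brightest probe stood for its gene, and each other kept probe was tested on its own, a step chosen after seeing the data. Diets were compared with limma 3.58.1 in R 4.3.3 (functions lmFit, then eBayes; two-sided tests; data.table version 1.17.8) over all 21874 genes, with Benjamini-Hochberg adjusted p under 0.05. The fit was tested on simulated data. Motifs and figures used matplotlib 3.10.9, numpy 2.4.6 and pandas 2.3.3 under Python 3.11.15. Alternatives covered background, scaling, the deposited values, filters, probes, the spread estimate, slides, rat numbers and each rat left out.

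The members, the lists and the tests were chosen with earlier results of these data known. All members are named, and of each further list up to 4 changed genes, or the 2 with the smallest p where none changed. Some regulators of the unfolded protein response that did not pass are named besides. Nothing in the labels ties a rat number in 1 diet to the same number in the other, and the number of arrays limits the precision.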

Additional observations from a re-analysis of the deposited data

Results flagged for a closer look

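Among the values of the 35 genes in each diet, 70 groups of 6 rats were examined for 1 rat standing far from the rest, and 2 exceeded Dixon's critical value for 6 samples. Chance alone passes this limit in about 1 of 20 groups. Pdia5 in low protein rat 6 was 1.22, while the other low protein rats lay between 1.81 and 2.08. P4hb in control rat 4 was 4.13, while the other control rats lay between 4.30 and 4.40.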

How the results depend on the processing

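Ero1b passed at an adjusted p under 0.05 in every setting tried except within slide 1 and within slide 2, with differences of 0.30 (normexp on the median signal, which stands in for the mean signal) to 0.67 (no scaling). Of 35 genes, 23 kept their sign in all 25 alternatives and 12 changed it in at least 1, none of which passed in the planned setting; the cause was not tested. The number of ER genes higher was 2 with a trended robust spread (Ero1b and Ssr4), 0 within slide 1, 0 within slide 2, 0 at an adjusted p under 0.01 and 1 to 2 with 1 rat left out, Derl3 joining without low protein rat 1. Of all genes, 761 were higher and 668 lower in the planned setting. No scaling left 212 lower, with 76.2% of calls higher against 53.3% in the planned setting. Without a filter on dim probes, 326 were higher and 292 lower among more genes tested. Slide 1 alone, with fewer rats, gave 82 higher and 82 lower, and slide 2 alone gave 11 and 1. At an adjusted p under 0.01 there were 244 higher and 193 lower. With 1 rat left out, 442 to 739 were higher and 414 to 704 lower, the fewest without control rat 3. The translocon median was 0.17 with no scaling, which moves the median of all genes by 0.13, and the degradation median was 0.32 within slide 2. With 1 rat left out the folding median was 0.08 to 0.17, the translocon median 0.0039 to 0.08 and the degradation median 0.07 to 0.15.

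Signs changed as follows. With normexp Canx was at 0.024, and with the deposited values it was at 0.021. With no scaling Canx was at 0.12, P4hb 0.042, Ssr1 0.097, Ssr2 0.074 and Edem1 0.13. With quantile normalization Pdia3 was at -0.0088, Pdia6 -0.082, Sec61a1 -0.038, Sec61b -0.070 and Ssr3 -0.017. With the mean of probes Edem3 was at -0.037. Within slide 1 Pdia6 was at -0.026, Sec61a1 -0.015, Sec61b -0.055, Ssr3 -0.036, Edem3 -0.057 and Xbp1 -0.012. Within slide 2 Canx was at 0.14, P4hb 0.021, Ssr1 0.15, Ssr2 0.025 and Edem1 0.40. With 1 rat left out Canx ran from -0.045 to 0.0094, Pdia3 from -0.058 to 0.11, Pdia6 from -0.039 to 0.052, Sec61b from -0.013 to 0.060, Ssr1 from -0.092 to 0.0061, Ssr2 from -0.084 to 0.0013, Ssr3 from -0.015 to 0.075 and Edem1 from -0.23 to 0.15.

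With rat number as a replicate block, 679 genes were higher and 732 lower, and Ero1b stayed the 1 ER gene called (0.54, adjusted p = 0.0437). The numbers do not pair the rats by the labels, and deviations of same-numbered rats correlated at 0.03 to 0.26 over 6 pairs, 5 of them over 0.1. Of 6 low protein rats, 2 correlated best with the control rat of the same number.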
